A study of Homo sapiens with 12 samples.

Results

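The ZBTB genes encode transcription factors that join an amino-terminal BTB domain to carboxy-terminal zinc fingers. They were taken here as every gene whose symbol is ZBTB followed by a number and at most 1 letter, on probe sets annotated with that 1 symbol. This gave 41 of the 19775 genes named on the array, all with the same symbol in RefSeq. Of these, 39 were bright enough to be tested, among 16094 genes tested in all. Members were chosen by symbol and not by a fold change. Measured values chose only the probe set that stands for a gene, which was the one with the highest mean log2(signal + 3) over all 12 arrays. ZBTB32 and ZBTB8B lay below the filter on low signal and were not tested.

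The BTB domain pairs the proteins with one another and recruits corepressor complexes or, in some members, the ubiquitin ligase scaffold CUL3, while the zinc fingers read DNA. Most described members repress transcription, and several are best known from lymphocyte development, from the reading of methylated CpG, and from control of the cell cycle inhibitor p21 and of MYC. In epithelial tumours ZBTB7A and the MYC partner ZBTB17 are the most studied members.

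Gene expression was measured on Affymetrix oligonucleotide arrays in 2 established human pancreatic cancer lines. The 4 groups of 3 arrays were BxPC-3 cells given the phorbol ester PMA, an activator of protein kinase C, at 1 µM for 4 h, untreated BxPC-3 cells, AsPC-1 cells given PMA in the same way, and untreated AsPC-1 cells. All cells had been held overnight in low serum, and PMA was dissolved in DMSO. The sources used here do not say whether untreated cells received DMSO. Each line is a single model, BxPC-3 described by the series as from a primary tumour and AsPC-1 as from ascites. The 3 arrays of a group came from 3 cell passages, which were 7, 9 and 11 in BxPC-3 and 8, 10 and 12 in AsPC-1. The epithelial markers KRT8, KRT18, KRT19, EPCAM and CDH1 lay above the filter on all 12 arrays. Of 9 markers of other cell types, the islet genes INS and GCG lay above it on 0 arrays and the leukocyte gene PTPRC and the pericyte gene PDGFRB on 1 each. The monocyte gene CD14 and the endothelial gene PECAM1 lay above it on all 12 arrays (CD14 at 9.60 to 64.1 and PECAM1 at 21.6 to 63.6), the T cell gene CD3E and the collagen gene COL1A1 on 11, and the collagen gene COL3A1 on 7. The summed signal of the 9 was 182 to 251 in PMA-treated BxPC-3, 150 to 195 in untreated BxPC-3, 91.3 to 140 in PMA-treated AsPC-1 and 130 to 167 in untreated AsPC-1, and its part in the results was not tested.

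Levels are MAS5 signal intensities on a linear scale, and differences are on log2(signal + 3), which understates changes of dim genes. Adjusted p-values come from a limma fit across all tested genes with Benjamini-Hochberg adjustment at a threshold of 0.05. "Fell" and "rose" are used of genes that passed it. With 3 arrays a group, the smallest p that an exact permutation test of a single gene can give is 0.1. Signal per cell and the number of cells of a kind cannot be told apart in bulk RNA. Signals of different probe sets are not on a common scale, so no gene's level is set against another's.

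Start regions are shown for the genes that fell after PMA in BxPC-3, to show what these co-moving genes carry at their starts. RefSeq promoter windows (GRCh38.p14, 250 bases before to 50 bases after the gene start) were present for 6 of the 8, and ZBTB10 and ZBTB41 had none in the table. The windows are chrX:120250562-120250861 on the plus strand, chr3:141323936-141324235 on the plus strand, chr6:109483170-109483469 on the minus strand, chr18:5297004-5297303 on the minus strand, chr9:122931463-122931762 on the minus strand and chr1:32539177-32539476 on the plus strand. Each is written 5' to 3' on the strand of its gene, and capitals mark matches to a searched motif on either strand.
ZBTB33: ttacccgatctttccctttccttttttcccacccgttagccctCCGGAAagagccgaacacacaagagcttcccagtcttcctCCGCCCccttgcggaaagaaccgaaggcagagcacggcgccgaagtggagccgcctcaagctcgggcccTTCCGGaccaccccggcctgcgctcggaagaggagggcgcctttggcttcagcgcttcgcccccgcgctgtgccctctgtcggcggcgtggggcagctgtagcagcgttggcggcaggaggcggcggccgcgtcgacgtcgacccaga
ZBTB38: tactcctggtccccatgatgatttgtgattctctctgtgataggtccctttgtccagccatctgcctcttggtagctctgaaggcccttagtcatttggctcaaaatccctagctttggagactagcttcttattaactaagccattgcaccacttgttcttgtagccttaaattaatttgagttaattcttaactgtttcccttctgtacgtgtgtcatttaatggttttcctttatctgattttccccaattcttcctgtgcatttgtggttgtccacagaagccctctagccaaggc
ZBTB24: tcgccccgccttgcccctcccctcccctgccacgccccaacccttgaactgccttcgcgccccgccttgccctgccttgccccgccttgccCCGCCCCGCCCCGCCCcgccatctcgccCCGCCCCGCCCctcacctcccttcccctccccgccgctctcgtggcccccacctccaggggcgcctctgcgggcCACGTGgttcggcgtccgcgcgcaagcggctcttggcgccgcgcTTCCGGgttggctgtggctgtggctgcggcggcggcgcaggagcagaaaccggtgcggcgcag
ZBTB14: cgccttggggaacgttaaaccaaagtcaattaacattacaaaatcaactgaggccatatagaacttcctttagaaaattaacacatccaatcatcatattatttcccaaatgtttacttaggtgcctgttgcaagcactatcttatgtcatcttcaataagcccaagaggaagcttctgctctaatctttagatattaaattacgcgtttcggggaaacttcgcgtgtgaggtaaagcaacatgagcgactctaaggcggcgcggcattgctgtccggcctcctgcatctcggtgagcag
ZBTB26: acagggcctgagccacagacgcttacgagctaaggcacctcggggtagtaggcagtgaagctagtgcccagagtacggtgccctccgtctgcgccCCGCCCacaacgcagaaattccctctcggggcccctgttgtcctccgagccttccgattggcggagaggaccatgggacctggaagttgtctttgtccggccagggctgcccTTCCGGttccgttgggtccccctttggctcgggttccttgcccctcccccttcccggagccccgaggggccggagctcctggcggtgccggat
ZBTB8A: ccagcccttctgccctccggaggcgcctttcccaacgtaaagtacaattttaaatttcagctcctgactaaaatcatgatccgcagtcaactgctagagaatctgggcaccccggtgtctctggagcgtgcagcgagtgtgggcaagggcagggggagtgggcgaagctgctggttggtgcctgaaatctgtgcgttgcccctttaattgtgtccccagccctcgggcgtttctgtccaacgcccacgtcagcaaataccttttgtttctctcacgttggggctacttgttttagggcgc

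The motifs searched were the AP-1 element TGANTCA, the cyclic AMP response element TGACGTCA, the E-box CACGTG, the ETS core CCGGAA, the GC box GGGCGG and the sequence-specific Kaiso site TCCTGCNA. Overlapping matches were all marked, and none of these motifs is contained in another. ZBTB24 held 5 GC boxes between positions -159 and -126 from its start, an E-box at -57 and an ETS core at -13. ZBTB33 held ETS cores at -207 and -98 and a GC box at -167. ZBTB26 held an ETS core at -43 and a GC box at -155. The windows of ZBTB38, ZBTB14 and ZBTB8A held no match to any of the searched letters. Across all 27305 windows in the table, the GC box was present in 44.6%, the ETS core in 17.6%, the AP-1 element in 7.76%, the E-box in 7.43%, the Kaiso site in 4.62% and the cyclic AMP response element in 1.98%. Among the 35 ZBTB windows in the table, 25 held a GC box, 11 an ETS core, 7 an E-box, 3 the cyclic AMP response element, 2 the Kaiso site and 1 the AP-1 element.

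CpG content varied widely among these starts. The ZBTB24 window held 37 CpG dinucleotides and was 77.7% G or C, and that of ZBTB33, itself a reader of methylated CpG, held 33. ZBTB26 held 21, ZBTB8A 15 and ZBTB14 13, and ZBTB38 held 1 at 42.7% G or C. The median was 24 over the 35 ZBTB windows and 14 over all windows.

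The arrays themselves differed in some measures of quality. The trimmed mean signal was 100.01 to 100.02 on every array, so they shared a scale. The ratio of 3' to 5' signal for ACTB, a sign of RNA quality, was 1.84, 1.99 and 2.02 on the BxPC-3 PMA arrays, against 2.56, 2.95 and 4.14 on the untreated BxPC-3 arrays. It was 1.79 to 2.32 on the AsPC-1 PMA arrays and 2.22 to 2.27 on the untreated AsPC-1 arrays. The ACTB ratio thus moved with treatment in BxPC-3. The same ratio for GAPDH overlapped there, at 1.00, 1.07 and 1.02 on the PMA arrays, against 1.04, 1.06 and 1.12 on the untreated arrays. The part of either ratio in the ZBTB results of that line was not tested. AsPC-1 PMA replicate 1 (passage 8) correlated less with its own group (r = 0.921, across genes) than with the untreated array of its passage (r = 0.964). Results resting on AsPC-1 are therefore also given without it, or without both passage 8 arrays of that line, an alternative chosen after seeing the data.

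After PMA in BxPC-3, 8 ZBTB genes fell and 0 rose. They were the methyl-CpG readers ZBTB33 and ZBTB38, the SP factor repressor ZBTB10, the immunodeficiency gene ZBTB24, and the less studied ZBTB8A, ZBTB14, ZBTB26 and ZBTB41. Over all tested genes, 3.31% fell and 2.51% rose in this comparison. The family was chosen with earlier results of this contrast known, so the count is a description. The median log2 difference was -0.25 over the 39 members and 0 over all genes, with 25 members below 0 and 14 above. With each array centred on its median, 8 members fell and 1, ZBTB1, rose, against 2.75% and 3.19% of all genes. In 15 of the 39 the signals of all PMA arrays lay below those of all untreated arrays, and in 4 above them, against 21.9% and 17% of all genes. The plot of responses by line shows each member.

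**Figure D1:**
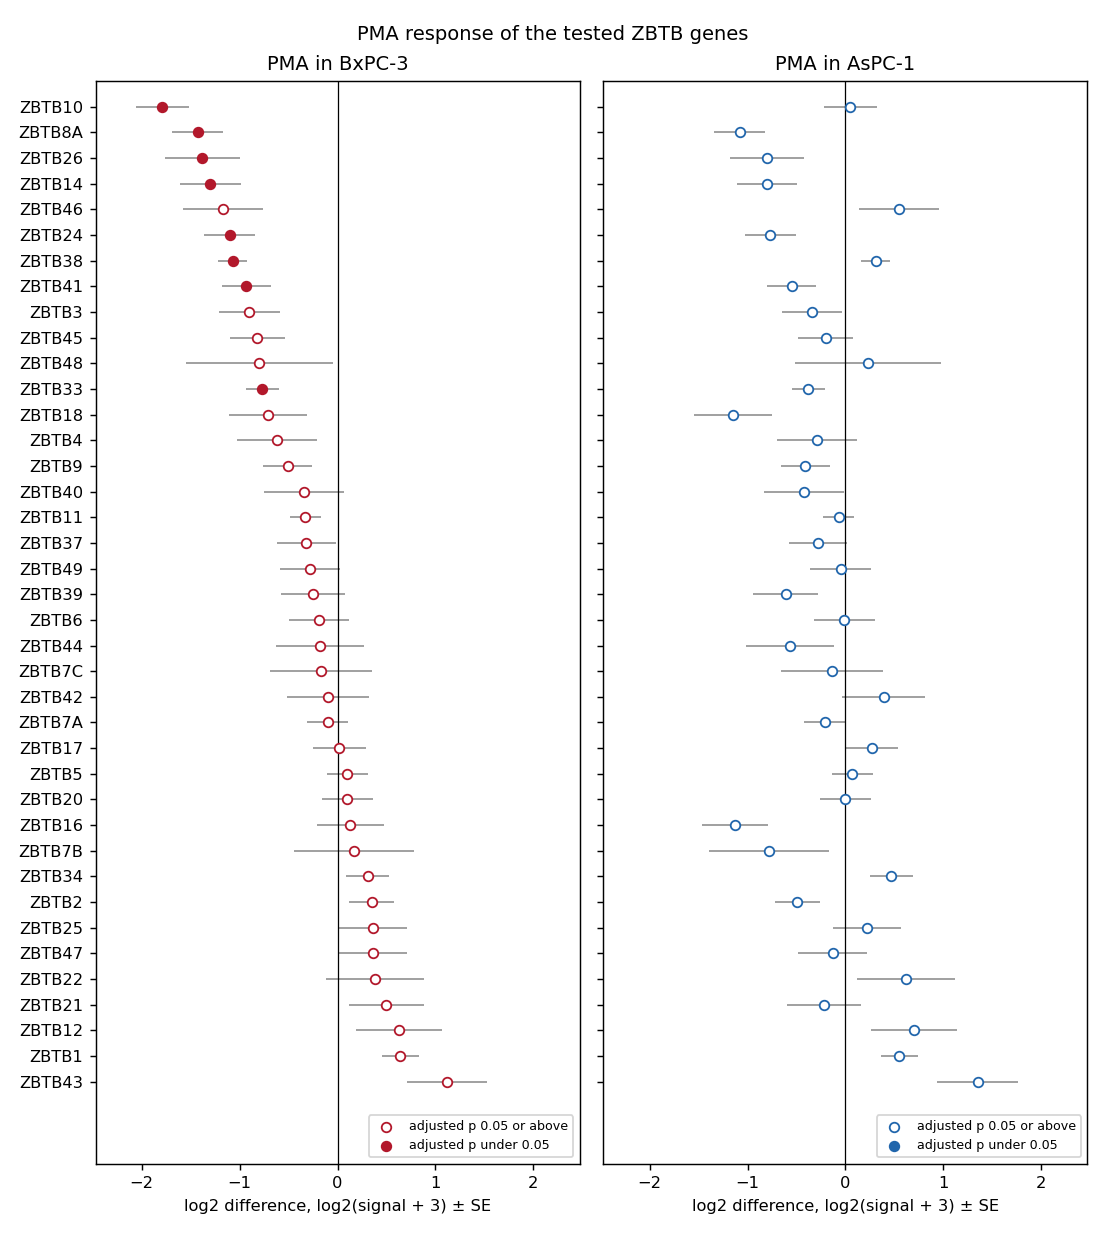
PMA response of the 39 tested ZBTB genes as log2 differences (PMA minus untreated) ± SE from the limma fit, BxPC-3 on the left and AsPC-1 on the right, ordered by the BxPC-3 value. Filled points passed the adjusted threshold of 0.05: 8 genes in BxPC-3, all below 0, and 0 in AsPC-1.

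ZBTB10 is described as a repressor of the SP family of GC box factors. Its signal was 30.1, 22.8 and 21.1 on the PMA arrays, against 89.8, 86.4 and 98.7 on the untreated arrays of BxPC-3. The untreated signals were all far above the PMA signals, with no overlap. The log2 difference was -1.79 ± 0.27 (SE, adjusted p = 0.00198), a 3.45-fold lower value and the largest change of any tested ZBTB gene in that line. Of its 5 further probe sets above the filter, 2 also fell, by 1.40 (adjusted p = 0.029) and by 1.38 (adjusted p = 0.0279), each in a fit over all probe sets. The dimmer other 3 did not pass. In AsPC-1 the ZBTB10 signal was 23.3, 37.0 and 27.8 after PMA, against 37.1, 23.4 and 24.4 untreated. Those groups overlapped fully, at a level near that of PMA-treated BxPC-3, and the difference was 0.05 ± 0.27 (adjusted p = 0.948).

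ZBTB38, a Kaiso-like protein that binds methylated CpG, had signals of 300.7, 321.6 and 299.4 after PMA, against 661.1, 677.7 and 613.1 untreated in BxPC-3. The arrays of each group were close together and the groups were clearly apart. It fell by 1.07 ± 0.15 on the log2 scale (adjusted p = 0.0013). One of its 3 further probe sets above the filter also fell, by 1.44 (adjusted p = 0.0454). That probe set was dim, with a mean of 3.22 after PMA, under the filter signal, against 13.6 untreated. The other 2 had differences of -1.02 and -0.55 and did not pass. The kept probe set decides the call: averaged over all its probe sets the gene differed by -0.82 and did not pass.

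ZBTB33, known as Kaiso and the founding methyl-CpG reader of the family, had signals of 577.4, 626.9 and 581.7 in PMA-treated BxPC-3, against 978.0, 1051 and 1019 in untreated BxPC-3. The groups did not overlap. Its difference was -0.77 ± 0.17 (adjusted p = 0.021), and its further probe set, at -0.36, did not pass (adjusted p = 0.545). The remaining reader, ZBTB4, had 166.2, 149.3 and 177.3 after PMA, against 264.1, 224.6 and 273.5 untreated. It too was lower on every PMA array, but its difference of -0.62 ± 0.41 did not pass (adjusted p = 0.433).

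ZBTB24 is mutated in a form of the syndrome of immunodeficiency, centromeric instability and facial anomalies, in which satellite DNA loses methylation. Its signals were 95.8, 111.8 and 109.9 after PMA, against 235.0, 210.4 and 242.8 untreated, with no overlap. It fell by 1.10 ± 0.26 (adjusted p = 0.0249), on the kept probe set alone: both further probe sets, with differences of 0.35 and -0.13, did not pass.

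ZBTB14, which binds GC-rich promoters and was described as a repressor of MYC, had 30.1, 44.0 and 43.4 after PMA, against 105.8, 86.3 and 108.4 untreated. Each untreated signal was above each PMA signal. The difference was -1.30 ± 0.31 (adjusted p = 0.0249), with -0.30 on its further probe set (adjusted p = 0.675). ZBTB8A had 153.6, 151.0 and 139.1 after PMA, against 372.7, 399.5 and 442.1 untreated. Its groups were well separated, and it fell by 1.43 ± 0.26 (adjusted p = 0.00634) on its single probe set.

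ZBTB41 and ZBTB26 lay at the threshold. ZBTB41 had 111.9, 132.7 and 121.9 after PMA, against 225.8, 216.1 and 264.3 untreated, a difference of -0.93 ± 0.25 (adjusted p = 0.0489). ZBTB26 had 60.8, 47.5 and 50.6 after PMA, against 122.3, 129.1 and 182.2 untreated, a difference of -1.38 ± 0.38 (adjusted p = 0.04998). Its further probe set, at -0.65, did not pass (adjusted p = 0.413). Neither gene's groups overlapped, yet both calls were lost with a pseudocount of 1 or with no filter on low signal. Both were also lost with no intensity trend or with the mean over all probe sets, and that of ZBTB41 with quantile normalization. Each held in 3 of the 12 fits that left out an array. Just outside the threshold stood ZBTB1, a regulator of lymphoid development, with a difference of 0.64 ± 0.19 (adjusted p = 0.0733). A second probe set of ZBTB1, which can share related transcripts, rose by 2.00 (adjusted p = 0.0169).

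**Figure D2:**
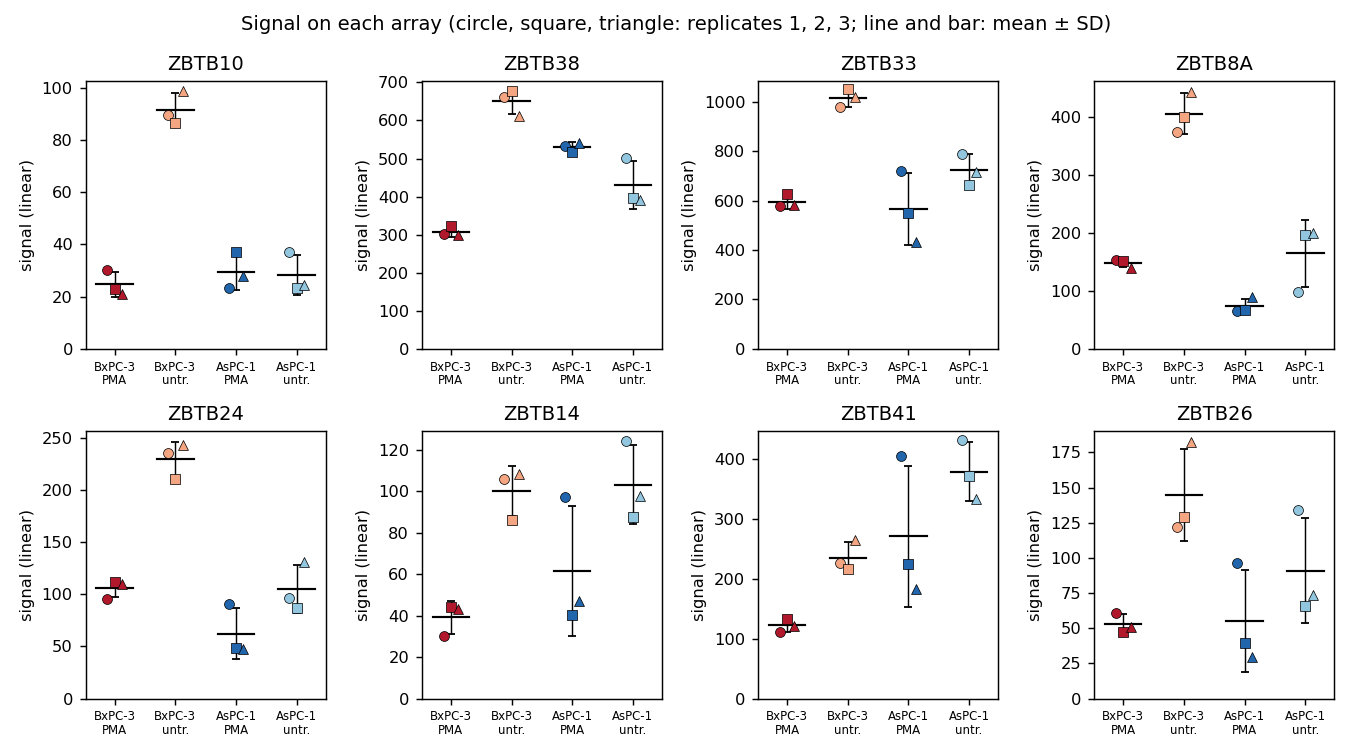
Linear signal on each of the 12 arrays for the 8 ZBTB genes that fell after PMA in BxPC-3, with the mean (line) and SD (bar) of each group of 3; circles, squares and triangles are replicates 1, 2 and 3. In BxPC-3 the PMA arrays lie below the untreated arrays in all 8 panels, while in AsPC-1 the ZBTB10 groups overlap and the ZBTB38 PMA arrays lie above the untreated ones.

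Which arrays entered the fit moved this count. Leaving out any 1 of the 6 BxPC-3 arrays left 3 calls, which were ZBTB10, ZBTB38 and ZBTB8A each time, and these 3 were called in all 12 fits that left out an array. Leaving out AsPC-1 PMA replicate 1 gave 11 calls (2 higher and 9 lower), and leaving out both passage 8 arrays of AsPC-1 gave 15 (2 higher and 13 lower), in each case with all 8 among them. The share of all tested genes called moved as well: it was 5.82% with all arrays, 2.02% to 2.91% without 1 of the BxPC-3 arrays, 14.9% without AsPC-1 PMA replicate 1 (5.70% higher and 9.18% lower) and 23.4% without both passage 8 arrays (9.13% higher and 14.3% lower).

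By passage, the 8 genes were lower in every BxPC-3 pair of arrays. They were called on these same arrays and their groups did not overlap, so this had to be so and adds no support. ZBTB10 differed by -1.49, -1.79 and -2.08 in passages 7, 9 and 11. ZBTB38 was nearly constant at -1.13, -1.07 and -1.03, as was ZBTB33 at -0.76, -0.74 and -0.81. ZBTB14, by contrast, ranged over -1.71, -0.93 and -1.26. The median over all 39 members was -0.40, -0.05 and -0.42 in those passages, against -0.08, 0.02 and 0.03 for all genes.

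**Figure D3:**
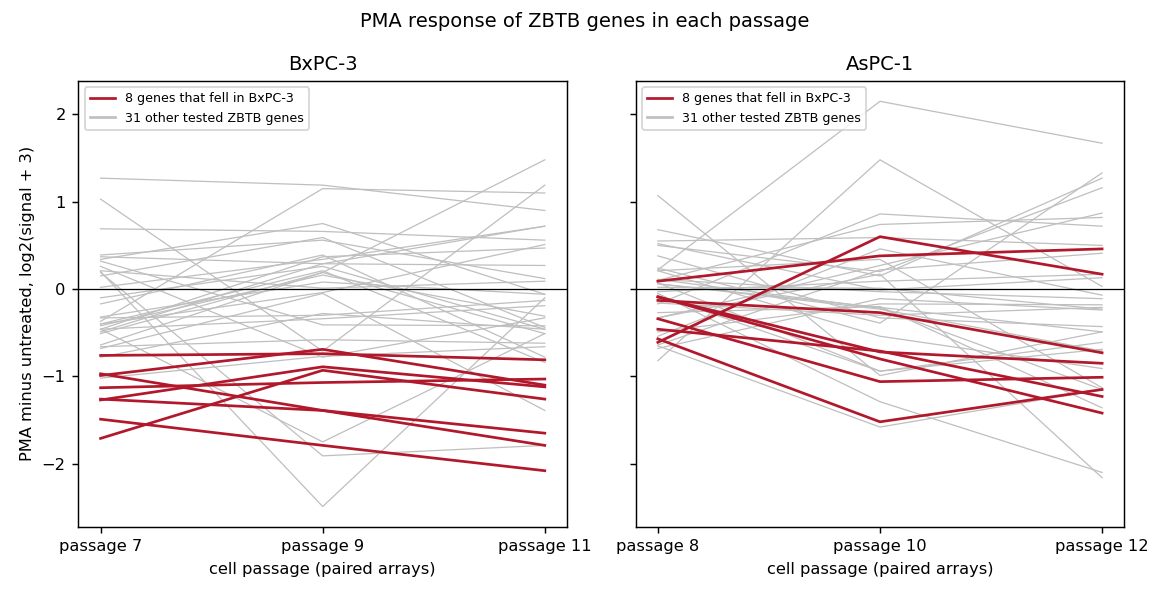
PMA minus untreated log2(signal + 3) within each passage, BxPC-3 on the left and AsPC-1 on the right; red lines are the 8 genes that fell in BxPC-3 and grey lines the other 31 tested members. Red lines stay below 0 in all 3 BxPC-3 passages, which hold the arrays on which these genes were called. In AsPC-1 6 of the 8 lie lower in passages 10 and 12 than in passage 8.

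After PMA in AsPC-1, 0 ZBTB genes passed the threshold in limma, where 1.24% of all genes rose and 0.721% fell. At an unadjusted p under 0.05 there were 9 of the 39 members, or 23.1%, against 16.5% of all genes. A limma fit of only the 6 AsPC-1 arrays called 0 members, and also 0 of all genes. The median difference was -0.20 over members and -0.10 over all genes. With the passage as a replicate block, 2 members passed, against 5.62% of all genes: ZBTB43 rose and ZBTB8A fell. ZBTB8A had signals of 65.2, 66.4 and 88.5 after PMA, against 98.0, 195.5 and 199.9 untreated. Its groups did not overlap, and the difference of -1.08 ± 0.26 lay just outside the threshold (adjusted p = 0.0505), or inside it with the block (adjusted p = 0.0197). In all, 2 members had every PMA array below every untreated array (ZBTB8A and ZBTB16) and 2 had the reverse (ZBTB12 and ZBTB38), against 8.37% and 6.06% of all genes.

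ZBTB16, also called PLZF and known from natural killer T cells and a leukaemia fusion, was dim in both lines. It had 8.59, 3.21 and 6.57 in PMA-treated AsPC-1, against 15.2, 15.6 and 18.2 in untreated AsPC-1. The difference was -1.13 ± 0.34 (adjusted p = 0.118). In BxPC-3 it had 10.3, 12.8 and 15.8 after PMA, against 15.4, 9.22 and 10.6 untreated, and the groups overlapped. ZBTB43 had 52.5, 193.6 and 217.0 in PMA-treated AsPC-1, against 44.5, 41.4 and 65.9 untreated. The passage 8 PMA array sat among the untreated ones and the other two well above them, with a difference of 1.35 ± 0.41 (adjusted p = 0.121).

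The same array moved many members. Without AsPC-1 PMA replicate 1, 12 ZBTB genes passed in AsPC-1, 10 lower (ZBTB2, ZBTB8A, ZBTB14, ZBTB16, ZBTB18, ZBTB24, ZBTB26, ZBTB33, ZBTB41 and ZBTB44) and 2 higher (ZBTB34 and ZBTB43). Over all genes in that fit, 13.5% were lower and 6.10% higher. Without both passage 8 arrays 15 passed, 11 lower and 4 higher, against 14.4% and 7.03% of all genes. Calls thus became many times more frequent among all genes too in both fits, and nothing particular to the family is read from these counts. Leaving out any other array gave 0 to 2, against 0.379% to 1.9% of all genes. On both passage 8 arrays ZBTB4 and ZBTB44 stood apart from the other AsPC-1 arrays. ZBTB4 had 400.6 on the passage 8 PMA array and 383.9 on its untreated partner, against 115.1 to 190.7 on the other 4 arrays. ZBTB44 had 635.1 and 668.8 on that pair, against 162.2 to 313.2 elsewhere in the line. What sets this pair apart was not tested.

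Of the 8 genes that fell in BxPC-3, 6 had differences below 0 in AsPC-1 without passing: -0.38 for ZBTB33, -0.55 for ZBTB41, -0.77 for ZBTB24, -0.80 for ZBTB14 and ZBTB26, and -1.08 for ZBTB8A. In that comparison 26 of the 39 members and 59% of all genes were below 0. Without both passage 8 arrays of AsPC-1 each of the 6 passed there, at adjusted p-values from 5.107e-05 (ZBTB8A) to 0.0116 (ZBTB33). In that fit 14.4% of all genes were lower, and nothing particular to these genes is read from it. For none of these 6 was the difference between the lines' responses past the threshold.

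On its kept probe set, ZBTB38 responded differently in the 2 lines. In AsPC-1 its signals were 534.0, 518.5 and 540.9 after PMA, against 502.6, 397.2 and 392.2 untreated. All PMA arrays were higher, by 0.31 ± 0.15 (adjusted p = 0.324), which did not pass. Without both passage 8 arrays of that line it passed, at 0.42 (adjusted p = 0.0171). The difference of the PMA responses (BxPC-3 minus AsPC-1) was -1.38 ± 0.21 (adjusted p = 0.0165), the only member among those called in this comparison, in which 0.174% of all genes had a lower and 0.317% a higher response in BxPC-3. The call held in 7 of the 12 fits that left out an array, with a largest adjusted p of 0.063. It was lost when the gene's probe sets were averaged, at -0.94 (adjusted p = 0.514). The 3 further ZBTB38 probe sets above the filter gave -0.83, -1.42 and -1.16, and none of them passed (adjusted p = 0.82, 0.608 and 0.556). ZBTB10 followed at -1.84 ± 0.38 (adjusted p = 0.0559) and passed with a pseudocount of 16 (adjusted p = 0.0252) or without both passage 8 arrays of AsPC-1 (adjusted p = 0.00168). The 5 further ZBTB10 probe sets above the filter gave -1.22, -1.79, -1.86, 1.53 and -0.73, and none of them passed (adjusted p = 0.159 to 0.833).

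Between the lines, 12 ZBTB genes differed after PMA, 7 higher in BxPC-3 and 5 lower, where 18.3% of all genes were higher and 15.2% lower. In untreated cells 13 differed, 10 higher in BxPC-3 and 3 lower, against 16.8% and 15.6% of all genes. The median difference was 0.26 after PMA and 0.19 untreated over members, and 0.03 and -0.08 over all genes. After PMA, 12 members had every BxPC-3 array above every AsPC-1 array and 8 the reverse, against 22.9% and 20.5% of all genes. Untreated, these numbers were 13 and 5, against 25.1% and 25.6%. The family was chosen with these contrasts known, and nothing is read from the counts. The plot of line differences places the 2 conditions side by side.

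**Figure D4:**
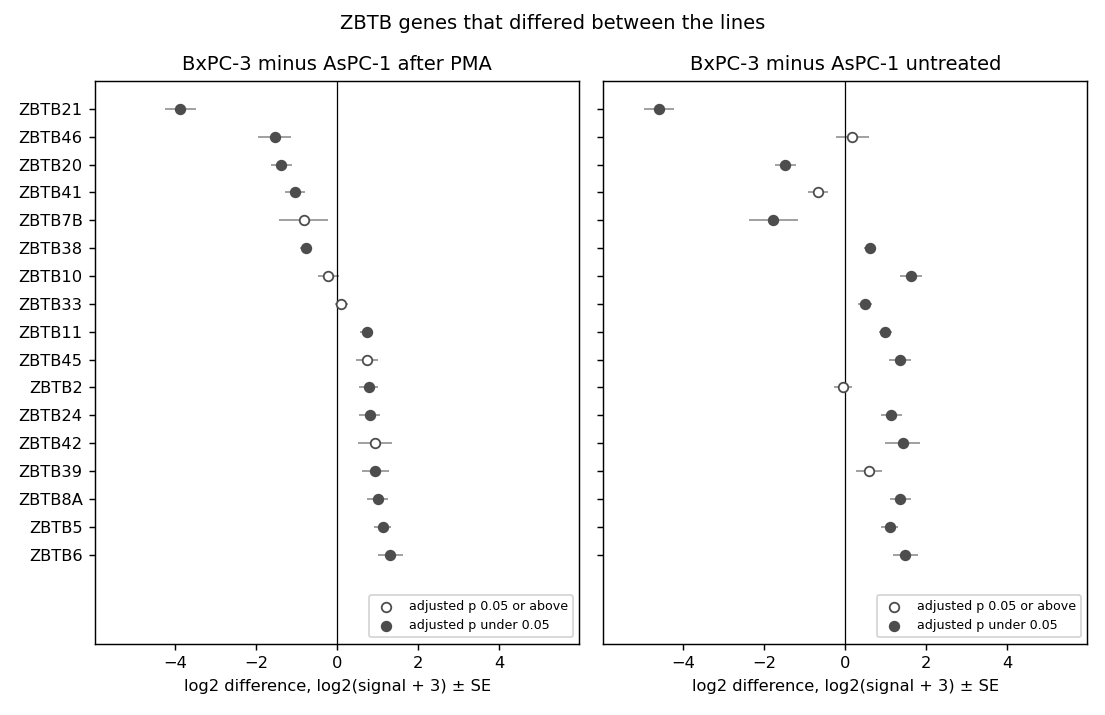
BxPC-3 minus AsPC-1 log2 differences ± SE after PMA (left) and untreated (right) for the 17 ZBTB genes that passed in either condition. Filled points passed the adjusted threshold of 0.05. ZBTB21 lies furthest below 0 in both panels, with all its BxPC-3 signals under the filter. ZBTB38 lies below 0 after PMA and above 0 untreated.

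ZBTB21 differed most. Its signals were 7.56, 0.67 and 5.34 in PMA-treated BxPC-3, against 119.3, 86.1 and 91.0 in PMA-treated AsPC-1. In untreated cells they were 2.18, 2.99 and 0.65 in BxPC-3, against 133.5, 106.5 and 105.6 in AsPC-1. No BxPC-3 array lay above the filter, whereas all 6 AsPC-1 arrays did. ZBTB21 was thus tested through AsPC-1 alone, and its p-values are not used as support. The fitted differences were -3.88 ± 0.38 after PMA and -4.60 ± 0.38 untreated. Their true size is not known, because the BxPC-3 signals are below or near the pseudocount. The further probe set gave -4.84 and -4.56, with BxPC-3 means of 1.31 after PMA and 0.398 untreated.

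ZBTB21 lies on chromosome 21 and encodes a repressor described as a partner of ZBTB14. Of the 6 protein-coding genes on either side, named through RefSeq, 11 of 12 were tested. The nearest tested neighbours were also low in BxPC-3. C2CD2 had signals of 0.451 to 6.59 over the 6 BxPC-3 arrays, against 125 to 424 over the 6 AsPC-1 arrays, and lay above the filter on none of the BxPC-3 arrays. PRDM15 had 1.66 to 9.17 in BxPC-3 (above the filter on 1 array), against 40.7 to 112 in AsPC-1. RIPK4 had 2.95 to 16.1 in BxPC-3 (above it on 2), against 421 to 1150 in AsPC-1. ABCG1 had 5.88 to 9.5 in BxPC-3 (above it on 2), against 182 to 378 in AsPC-1. The lines did not overlap for any of the 4, and with BxPC-3 signals mostly under the filter no size of difference is given. Further out the picture was mixed. TMPRSS2 and MX1, above the filter on 2 and 3 of the BxPC-3 arrays, were at -2.37 (adjusted p = 0.0105) and -0.88 (adjusted p = 0.152) in untreated cells. After PMA they were at -3.24 (adjusted p = 0.00124) and -1.66 (adjusted p = 0.0107). The other neighbours lay above the filter on all arrays. Untreated, TFF3 was at -2.64 and TFF2 at -1.62, but TMPRSS3 at 0.02, TFF1 at 1.43 and MX2 at 3.50. In the same order, the values after PMA were -2.53, -1.51, -0.03, 0.95 and 3.28. TFF1 passed untreated (adjusted p = 0.0148) but not after PMA (adjusted p = 0.0905), and TMPRSS3 passed in neither. These neighbours were chosen after the ZBTB21 values were seen, and what they share with it was not tested.

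**Figure D5:**
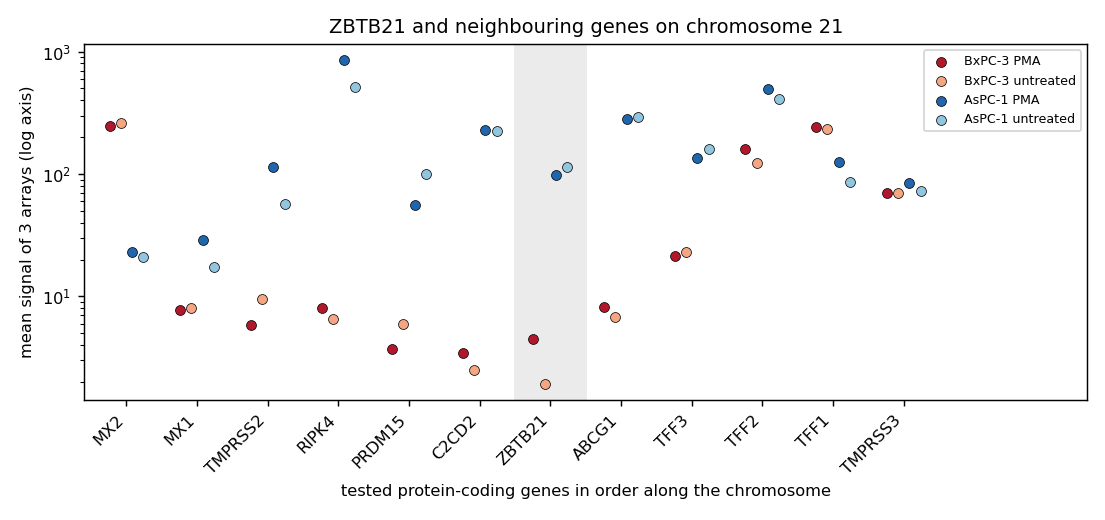
Mean linear signal of 3 arrays (log axis) in each group for ZBTB21 (shaded) and its 11 tested protein-coding neighbours in order along chromosome 21. In BxPC-3 the means of RIPK4, PRDM15, C2CD2, ZBTB21 and ABCG1 lie below those of AsPC-1, with BxPC-3 signals mostly under the filter. The means of MX2 and TFF1 are higher in BxPC-3, and for TFF1 the difference passed untreated only.

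ZBTB20, a repressor of alpha-fetoprotein in mouse liver, was lower in BxPC-3 in both conditions. It had 110.0, 142.3 and 107.5 in PMA-treated BxPC-3, against 210.9, 370.3 and 401.9 in PMA-treated AsPC-1. Untreated, it had 98.8, 93.8 and 146.5 in BxPC-3, against 329.8, 316.6 and 301.1 in AsPC-1. The lines did not overlap in either condition, with differences of -1.39 ± 0.26 (adjusted p = 0.000875) after PMA and -1.49 ± 0.26 (adjusted p = 0.000518) untreated. Of 9 further probe sets above the filter, 5 were also lower after PMA and 5 untreated. PMA left it at differences of 0.10 in BxPC-3 and 0 in AsPC-1.

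Members higher in BxPC-3 in both conditions were ZBTB5, ZBTB6, ZBTB8A, ZBTB11 and ZBTB24. ZBTB6 had 67.2, 76.0 and 64.0 in PMA-treated BxPC-3, against 34.3, 16.7 and 30.9 in PMA-treated AsPC-1, a difference of 1.30 ± 0.31 (adjusted p = 0.0047). Untreated, its difference was 1.48 ± 0.31 (adjusted p = 0.00203). ZBTB5, described as a repressor of the p21 gene, had 311.9, 324.6 and 276.0 in PMA-treated BxPC-3, against 167.8, 123.7 and 127.2 in PMA-treated AsPC-1. The groups were apart, by 1.12 ± 0.21 (adjusted p = 0.000989), and by 1.09 ± 0.21 untreated (adjusted p = 0.00124).

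ZBTB8A was higher in BxPC-3 by 1.00 ± 0.26 after PMA (adjusted p = 0.00852) and by 1.35 ± 0.26 untreated (adjusted p = 0.0011). ZBTB11, an essential gene tied to mitochondrial function, was higher by 0.73 ± 0.16 (adjusted p = 0.00296) and 0.99 ± 0.16 (adjusted p = 0.000312). Its further probe set, at -0.50 after PMA and 0.84 untreated, did not pass. ZBTB24 was higher by 0.80 ± 0.26 (adjusted p = 0.029) and 1.13 ± 0.26 (adjusted p = 0.00418). Its further probe sets, at 0.83 and 0.01 after PMA and at 0.52 and 0.23 untreated, did not pass. Averaged over all its probe sets, ZBTB24 differed by 0.54 after PMA and did not pass (adjusted p = 0.0523). Its call after PMA held in 7 of 12 fits that left out an array, and that of ZBTB39 in 3.

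Other members passed in 1 condition, or in opposite directions. Of those described next, the difference of the PMA responses passed for ZBTB38 alone, so for the others a difference between the conditions is not shown. ZBTB10 was higher in untreated BxPC-3 by 1.62 ± 0.27 (adjusted p = 0.000338), and after PMA the lines overlapped at -0.22 ± 0.27. ZBTB38 was lower in BxPC-3 after PMA by 0.78 ± 0.15 (adjusted p = 0.00107) and higher untreated by 0.60 ± 0.15 (adjusted p = 0.00708). Averaged over all its probe sets, the untreated difference was -0.12 and did not pass. ZBTB41 was lower in BxPC-3 after PMA by 1.05 ± 0.25 (adjusted p = 0.00547). Untreated, every BxPC-3 array was again below every AsPC-1 array, at -0.68 ± 0.25 (adjusted p = 0.0557). That difference passed with median centring (adjusted p = 0.0115), with quantile normalization (adjusted p = 0.0269), with the untreated arrays alone (adjusted p = 0.0107) and without both passage 8 arrays (adjusted p = 0.00537). ZBTB46, known from classical dendritic cells, had 12.2, 3.30 and 3.66 in PMA-treated BxPC-3, against 30.6, 17.7 and 20.2 in PMA-treated AsPC-1, a difference of -1.55 ± 0.41 (adjusted p = 0.01). Its mean over all probe sets was only -0.08, and untreated the lines overlapped at 0.17 ± 0.41. ZBTB39 had 44.1, 44.7 and 50.9 in PMA-treated BxPC-3, against 35.5, 29.1 and 10.95 in PMA-treated AsPC-1, a difference of 0.94 ± 0.33 (adjusted p = 0.0426). Untreated, its difference was 0.58 ± 0.33 (adjusted p = 0.204), also without overlap.

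In untreated cells ZBTB45, which in mouse takes part in glial differentiation, had 107.8, 109.4 and 96.6 in BxPC-3, against 33.6, 34.4 and 51.4 in AsPC-1. It was higher in BxPC-3 by 1.35 ± 0.28 (adjusted p = 0.00178). After PMA its difference was 0.73 ± 0.28 (adjusted p = 0.0561), which passed over the mean of its probe sets (1.10, adjusted p = 0.00236) and without both passage 8 arrays (adjusted p = 0.0205). ZBTB42, linked to muscle disease, had 26.5, 35.1 and 28.6 in untreated BxPC-3, against 13.4, 16.9 and 2.79 in untreated AsPC-1, a difference of 1.41 ± 0.42 (adjusted p = 0.0189), and after PMA 0.92 ± 0.42 (adjusted p = 0.113). ZBTB7B, known as ThPOK and the commitment factor of CD4 T cells, had 11.1, 6.98 and 8.88 in untreated BxPC-3, against 75.9, 16.6 and 40.8 in untreated AsPC-1. The untreated groups did not overlap, with AsPC-1 widely spread, and the difference was -1.78 ± 0.61 (adjusted p = 0.0395). That call held in 6 of 12 fits that left out an array. After PMA the lines overlapped for ZBTB7B, at -0.83 ± 0.61 (adjusted p = 0.339).

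ZBTB7A and ZBTB17 did not pass under PMA in either line on their kept probe sets. ZBTB7A, also called LRF or Pokemon, a repressor of fetal globin genes, had 288.0, 332.1 and 278.0 after PMA, against 309.9, 277.8 and 383.2 untreated in BxPC-3. In AsPC-1 it had 191.2, 230.8 and 210.3 after PMA, against 183.4, 266.6 and 296.6 untreated. Both pairs overlapped, at -0.10 ± 0.21 and -0.21 ± 0.21. A dimmer ZBTB7A probe set rose in BxPC-3 by 1.16 (adjusted p = 0.0461). ZBTB17, known as MIZ-1 and the partner through which MYC represses genes, had 42.2, 55.1 and 57.1 after PMA, against 56.7, 56.6 and 39.3 untreated in BxPC-3. In AsPC-1 it had 53.8, 71.7 and 73.5 after PMA, against 68.2, 58.8 and 38.8 untreated. Its differences were 0.02 ± 0.27 and 0.27 ± 0.27. ZBTB7B differed by 0.17 ± 0.61 in BxPC-3 and -0.78 ± 0.61 in AsPC-1.

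The 31 members that did not pass in BxPC-3 differed there by -1.17 (ZBTB46) to 1.12 (ZBTB43), and the 39 tested members differed in AsPC-1 by -1.15 (ZBTB18) to 1.35 (ZBTB43). The 2 further ZBTB46 probe sets went the other way in BxPC-3, by 1.40 and 1.54, and did not pass. By role, 2 of the 3 methyl-CpG readers fell in BxPC-3, as did 1 of 5 regulators of p53, p21, MYC and SP factors, 1 of 8 tested immune and developmental regulators and 4 of 18 tested less studied members, where 3.31% of all genes fell. Neither the 3 genes of the ZBTB7 branch nor ZBTB11 and ZBTB48 passed. The lists were drawn up with earlier results known.

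Related genes outside the symbol rule were set beside the members. Of 6 tested BTB zinc finger genes with other names, 1 fell after PMA in BxPC-3, GZF1 at -1.16 ± 0.23 (adjusted p = 0.00989), and 0 in AsPC-1, against 3.31% and 0.721% of all genes. BCL6, the germinal centre repressor, differed by -0.17 in BxPC-3 and by 0.65 in AsPC-1 without passing. Of 8 tested corepressor genes and CUL3, 0 passed under PMA in either line. CUL3 differed by 0.34 ± 0.11 (adjusted p = 0.0994) and the corepressor BCOR by -0.94 ± 0.35 (adjusted p = 0.144) in BxPC-3.

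Of 7 tested genes described as ZBTB targets, 2 rose and 1 fell in BxPC-3, where 2.51% of all genes rose and 3.31% fell. In AsPC-1 1 of the 7 rose and 0 fell, against 1.24% and 0.721%. CDKN1A, which encodes p21, rose by 3.06 ± 0.58 (adjusted p = 0.0083) in BxPC-3 and by 3.66 ± 0.58 (adjusted p = 0.00765) in AsPC-1. MMP7, a described Kaiso target, rose by 1.08 ± 0.19 (adjusted p = 0.00647) in BxPC-3 and differed by -0.33 ± 0.19 in AsPC-1. SP3, an SP factor, fell by 0.63 ± 0.14 (adjusted p = 0.0193) in BxPC-3 and differed by -0.12 ± 0.14 in AsPC-1. Whether any of these follows from a ZBTB gene was not tested.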

How the data were processed

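The deposited table holds linear signal intensity for 54675 probe sets on 12 arrays, made by the authors with MAS5 per the submitters' processing notes (version not given). Detection calls were not used here. The number of arrays limits the precision. The 62 control probe sets were left out, and genes were named from 41091 probe sets with 1 symbol (1801 had several and 11721 none).

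Signals were taken as log2(signal + 3). A gene was tested if its signal exceeded the 40th percentile of the array (8.2 to 10.3) on 3 or more arrays, by the probe set with the highest mean. One model with a mean for each of the 4 groups was fitted in limma 3.58.1 to the 12 arrays (R 4.3.3; eBayes with intensity trend, 8 residual degrees of freedom), two-sided, adjusted over 16094 genes in each of 5 comparisons: the PMA response of each line, the line difference under PMA, the line difference without it, and the difference between both responses. An SE of one line therefore holds the spread of both. Replicates are cell passages, per the labels.

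Members, lists and tests were chosen with earlier results of these data known. Genes named with signals per array are members past the threshold in a PMA comparison, the 8 largest past it in each other comparison, and ZBTB7A, ZBTB7B, ZBTB10, ZBTB16, ZBTB17, ZBTB20, ZBTB33 and ZBTB38. ZBTB1, ZBTB4, ZBTB43, ZBTB44 and further probe sets were added after their values were seen. Arrays of one passage pair within a line, per the labels. Their deviations from the group means correlated across genes at -0.054, -0.126 and -0.059 in BxPC-3 and at 0.411, 0.206 and 0.157 in AsPC-1. The fit was tested on simulated data. Alternatives were pseudocounts of 1 and 16, median centring, quantile normalization, no filter, the mean over all probe sets, no intensity trend, the arrays of a comparison alone, the passage as a block, and leaving out each array. Leaving out both AsPC-1 passage 8 arrays and testing each further probe set were added after seeing the data. ZBTB21's neighbours were also chosen then. Figures were drawn with matplotlib 3.10.9.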

Additional observations from a re-analysis of the deposited data

Results flagged for a closer look

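The PMA response of ZBTB38 differed between the lines in the test of that difference itself, by -1.38 on the log2 scale (BxPC-3 minus AsPC-1, limma adjusted p = 0.0165). The PMA and untreated signals of ZBTB38 did not overlap in either line. It was therefore lower after PMA on 3 of 3 BxPC-3 passages and higher on 3 of 3 AsPC-1 passages. The difference kept its sign in all 12 fits that left out an array, at -1.50 to -1.32, and passed in 7 of them, with a largest adjusted p of 0.063. Averaged over the gene's probe sets it was -0.94 and did not pass (adjusted p = 0.514).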

How the results depend on the processing

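For PMA in BxPC-3 the 8 calls became 3 with the mean over all probe sets (2 of them among the 8), 5 with no intensity trend, 14 with the arrays of the comparison alone, 15 without both AsPC-1 passage 8 arrays, and 3 to 11 leaving out each array in turn. For PMA in AsPC-1 the 0 calls became 1 with median centring (ZBTB1), 2 with the replicate block, 15 without both passage 8 arrays, and 0 to 12 leaving out each array. Between lines after PMA, the 12 calls became 22 without both passage 8 arrays and 9 to 18 leaving out each array. Untreated, the 13 became 21 and 10 to 15. For the difference of responses, the 1 call became 2 with a pseudocount of 16, quantile normalization or no intensity trend, 0 with the mean over all probe sets, 3 without both passage 8 arrays, and 0 to 3 leaving out each array. The highest of each of these ranges came without AsPC-1 PMA replicate 1. Calls over all genes moved as well. Without both passage 8 arrays they were 23.4% for PMA in BxPC-3, 21.4% for PMA in AsPC-1, 47.3% between lines after PMA, 44.5% untreated and 7.38% for the difference of responses, against 5.82%, 1.96%, 33.5%, 32.4% and 0.491% with all arrays. The arrays of the comparison alone gave 22.0% for PMA in BxPC-3, the mean over all probe sets 4.5% and no intensity trend 4.23%. Median centring gave 1.8% and the replicate block 5.62% for PMA in AsPC-1. Leaving out each array gave 2.02% to 14.9% for PMA in BxPC-3 and 0.379% to 19.6% for PMA in AsPC-1. It gave 26.7% to 40.6% between lines after PMA, 25.6% to 40.6% untreated and 0.0559% to 4.44% for the difference of responses. For the difference of responses, a pseudocount of 16 gave 0.677%, quantile normalization 0.435%, no intensity trend 0.354% and the mean over all probe sets 0.485%. The untreated line difference of ZBTB38 reversed to -0.12 with the mean over all probe sets. The cause of these changes was not tested. The replicate block gave 10 calls for PMA in BxPC-3, against 10.2% of all genes. It changed 1 other call of a named gene, ZBTB33 untreated between lines, which no longer passed. Between lines arrays share only a replicate number. The block there gave 12 calls after PMA and 12 untreated, against 33.5% and 32.5% of all genes. ZBTB genes near the array filter, such as ZBTB7C and ZBTB12, have signals too low to separate small changes.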
